A study of Mus musculus with 40 samples.

Results

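The 4 libraries described here, of 40 in the series, are RNA of YUMM2.1 mouse melanoma cells that overexpress WT-Bmal1 and carry either the hairpin shMyh9#4 or the scramble hairpin shNC, with 2 libraries in each group. They were chosen by their labels alone, as the libraries of one hairpin and its control in one cell population. YUMM2.1 is a line from tumors with an activated Braf, a heterozygous Cdkn2a and a heterozygous stabilized β-catenin. The cells kept their own Bmal1 gene in every group, and the added WT-Bmal1 came from a GFP lentivirus, with the GFP-positive cells sorted. Hairpins came from a second lentivirus under puromycin selection, so each group was a pool of transduced cells and not 1 clone. The wider experiment has EV cells (empty vector), WT-Bmal1 cells and dHLH-Bmal1 cells, which carry a Bmal1 without its DNA binding domain, each with shNC, shMyh9#2 or shMyh9#4, which makes 9 groups and 18 libraries. The labels number the hairpin (number 4) and give no age, sex or time of collection. QuantSeq libraries hold 1 tag from the 3′ end of an RNA, so a gene's count does not grow with transcript length.

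Myh9 encodes the heavy chain of non-muscle myosin IIA, the motor that pulls on actin filaments in stress fibers and at the cell cortex. Its activity is set by phosphorylation of the light chain, among others by myosin light chain kinase. The balance of free and filamentous actin controls the coactivators MRTF, which bind SRF and drive genes of the cytoskeleton. In melanoma cells, Sox10 marks the melanocytic and neural crest-like states and Sox9 marks a more mesenchymal state. The comparison of shMyh9#4 with shNC asks which transcripts differ when Myh9 RNA is lowered by a hairpin other than shMyh9#2 in cells with added WT-Bmal1.

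Depth differed among the 4 libraries. The totals were 7587633 and 8886824 counts for shNC and 5160989 and 10308568 for shMyh9#4, within a range of 3643332 to 17485144 over the 18 libraries. Levels are given in CPM (the share of a library's counts, scaled as in edgeR after TMM normalization), and 10 counts in the shallowest of the 4 libraries correspond to 1.94 CPM. Of the melanocytic markers, Sox10, Mitf and Pax3 had counts in all 4 libraries, from 123 to 840 counts. The pigment genes Tyrp1, Dct and Mlana were at 0 in all 4, Pmel had 0 and 3 counts with shNC and 0 in both shMyh9#4 libraries, and Tyr had 14 and 1 counts with shNC against 1 and 0 with shMyh9#4. Of 18 markers of leukocytes, epithelium, endothelium, red cells and liver, 8 were at 0 in all 4 libraries and 12 had at most 3 counts in each, and the sum of the 18 was 183 and 214 counts with shNC and 125 and 245 with shMyh9#4. Among the exceptions were the endothelial genes Pecam1 (61 and 77 counts with shNC, 59 and 116 with shMyh9#4) and Cdh5 (95 and 99, then 45 and 112), while the endothelial gene Emcn was at 0. RNA of cultured cells was measured in bulk, so fewer cells of a kind and less RNA per cell cannot be told apart.

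The targeted gene was lower with shMyh9#4. Myh9 (ENSMUSG00000022443, chromosome 15, 77760587 to 77842175 of mm10, minus strand) had 969 and 919 CPM in the shNC libraries and 528 and 461 CPM in the shMyh9#4 libraries of WT-Bmal1 cells. The groups did not overlap, and the mean fell from 944 ± 34.9 CPM (SD, n = 2) to 494 ± 47.6 CPM, which left 52.4% of the shNC level. The log2 fold change was -0.93 (SE 0.09, edgeR adjusted p = 2.2e-04). Leaving out any 1 of the 4 libraries did not end the call of Myh9. The annotated gene Gm22107 lies within the Myh9 locus, and the sources used here do not give the strand setting of the counting.

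shMyh9#4 left more Myh9 RNA than shMyh9#2 in the same cells. With shMyh9#2, Myh9 had 226 and 233 CPM in WT-Bmal1 cells, or 24.3% of the shNC level, and the level with shMyh9#4 was higher by 1.10 on the log2 scale (SE 0.10, edgeR adjusted p = 2.4e-06). The same hairpin left 69.9% of the shNC level in EV cells and 74.7% in dHLH-Bmal1 cells. In EV cells Myh9 went from 682 and 645 CPM with shNC to 479 and 448 with shMyh9#4, a log2 fold change of -0.52 (SE 0.09, edgeR adjusted p = 0.005). In dHLH-Bmal1 cells it went from 881 and 859 to 669 and 629.9 CPM, a log2 fold change of -0.42 (SE 0.09, edgeR adjusted p = 0.0072). Thus Myh9 was lower in every shMyh9#4 library than in either shNC library of the same cells. The fall was larger in WT-Bmal1 than in dHLH-Bmal1 cells, with a difference of the log2 fold changes of -0.51 (SE 0.13, edgeR adjusted p = 0.047), a call that held in 6 of 15 other settings. Against EV cells the difference was -0.42 (95% interval -0.70 to -0.14, edgeR adjusted p = 0.21).

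**Figure D1:**
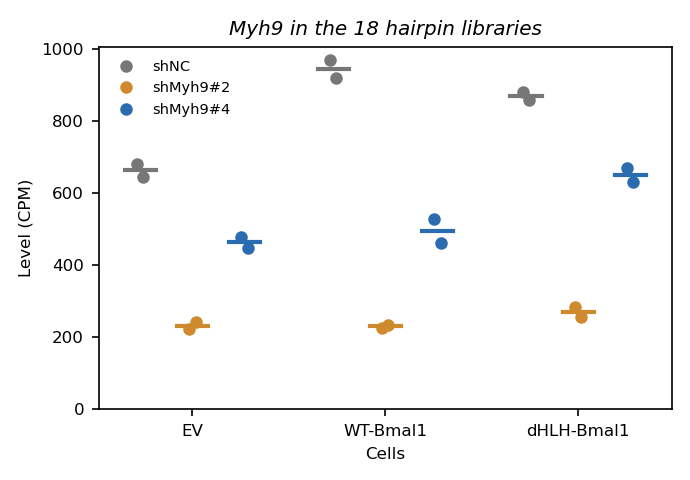
Level of Myh9 in CPM in the 18 hairpin libraries, by cells and hairpin. Each point is 1 library and each bar the mean of the 2 libraries of a group. In WT-Bmal1 cells the shMyh9#4 libraries sit at 528 and 461 CPM, between the shNC libraries and the shMyh9#2 libraries.

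Few other genes were called with shMyh9#4 in WT-Bmal1 cells, by a test that missed most small changes in simulated data. At an edgeR adjusted p under 0.05, 35 of 14848 genes (0.236%) were called, 13 of them higher with shMyh9#4 (0.0876%) and 22 lower (0.148%), and 1794 (12.1%) had an unadjusted p under 0.05, 889 of them higher (5.99%) and 905 lower (6.1%). The libraries of the groups did not overlap for any of the 35 genes. Such separation was also a condition of the naming rule, so it adds no support for the genes named by it. Of the 13 higher genes 6 overlap another annotated gene in the genome, as do 14 of the 22 lower genes, and reads of such pairs may not be told apart. The 13 higher genes differed by 0.67 to 2.72 on the log2 scale, 7 of them by at least 1, and had a median level of 11.01 CPM with shNC. The 22 lower genes differed by 0.39 to 0.98, none by 1 or more, and had a median of 178 CPM with shNC, against 14.4 CPM over all genes tested. The median log2 fold change over all genes tested was 0.00498. The number of calls rested on all 4 libraries, with 1 call without shNC replicate 1, 4 without shNC replicate 2, 5 without shMyh9#4 replicate 1 and 12 without shMyh9#4 replicate 2. A fit of the 4 libraries alone gave 5 calls, of which only Myh9 was among the 35, and DESeq2 gave 246.

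Among the higher genes were proteins of vesicle traffic and signaling at the membrane. Sytl2, a Rab effector of vesicle transport, had 9 and 2 counts in the shNC libraries and 25 and 47 in the shMyh9#4 libraries, a log2 fold change of 2.72 (SE 0.50, edgeR adjusted p = 0.032). Adgrl4, an adhesion G protein-coupled receptor known from endothelium, rose from 1.59 and 2.65 to 9.75 and 8.62 CPM, a log2 fold change of 2.07 (SE 0.28, edgeR adjusted p = 0.007). Arhgap20, a GTPase-activating protein, rose from 3.84 and 4.03 to 13.00 and 12.8 CPM (log2 fold change 1.71, SE 0.32, edgeR adjusted p = 0.039). These genes were at low levels, and both shMyh9#4 libraries stood above both shNC libraries for each. Adgrl4 kept its call in 3 of the 4 fits that left out a library, and Sytl2 and Arhgap20 in none. The endothelial gene Cdh5 had 12.6 and 11.4 CPM with shNC and 8.60 and 10.6 CPM with shMyh9#4. Fam129a, a protein induced by stress, went from 3.45 and 4.49 to 10.7 and 14.7 CPM (log2 fold change 1.69, SE 0.33, edgeR adjusted p = 0.042). Lin7c, a PDZ scaffold protein of cell junctions, went from 45.7 and 56.7 to 85.9 and 81.9 CPM (log2 fold change 0.71, edgeR adjusted p = 0.021).

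Several of the higher genes act at the cell surface or in the matrix. Thsd4, a secreted protein that promotes fibrillin assembly, rose from 7.03 and 5.64 to 15.3 and 15.4 CPM, a log2 fold change of 1.28 (SE 0.22, edgeR adjusted p = 0.028), and overlaps 4 annotated genes. Serpine2, a secreted inhibitor of thrombin and plasminogen activators, rose from 47.1 and 59.5 to 102 and 79.3 CPM, a log2 fold change of 0.75 (SE 0.15, edgeR adjusted p = 0.043). Vcam1, an adhesion molecule that binds integrins, and Ddr2, a collagen receptor kinase, were called too, and are named with Lin7c after their values were seen. Vcam1 had 45.7 and 46.4 CPM with shNC and 70.4 and 79.8 with shMyh9#4 (log2 fold change 0.71, edgeR adjusted p = 0.043). Ddr2 had 216 and 245 CPM with shNC and 390.5 and 345 with shMyh9#4 (log2 fold change 0.67, edgeR adjusted p = 0.019). Mgat4b, which adds branches to N-glycans, had 121 and 147 CPM with shNC and 229 and 215 with shMyh9#4 (log2 fold change 0.72, edgeR adjusted p = 0.031). For all of these genes both shMyh9#4 libraries lay above both shNC libraries.

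The other higher transcripts are non-coding or code for an RNA-binding protein. Rn7sk, the small nuclear RNA that holds an elongation factor of RNA polymerase inactive, had 7.56 and 10.7 CPM with shNC and 19.7 and 23.01 CPM with shMyh9#4 (log2 fold change 1.23, SE 0.22, edgeR adjusted p = 0.032). Mbnl3, a muscleblind regulator of splicing, had 10.7 and 11.3 CPM with shNC and 25.8 and 20.5 with shMyh9#4 (log2 fold change 1.06, SE 0.21, edgeR adjusted p = 0.043). Gm26870, annotated as a lincRNA at the start of chromosome 9 (3000282 to 3038313), had 78.9 and 55.9 CPM with shNC and 126 and 117 with shMyh9#4 (log2 fold change 0.85, SE 0.17, edgeR adjusted p = 0.043). It overlaps 9 annotated genes among which reads may be divided, and Rn7sk has many near-identical copies in the genome, so both levels are uncertain. In the same libraries, long non-coding RNAs as a class took 6.53% and 5.88% of counts with shNC and 7.71% and 6.74% with shMyh9#4, and their part in these results was not tested.

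**Figure D2:**
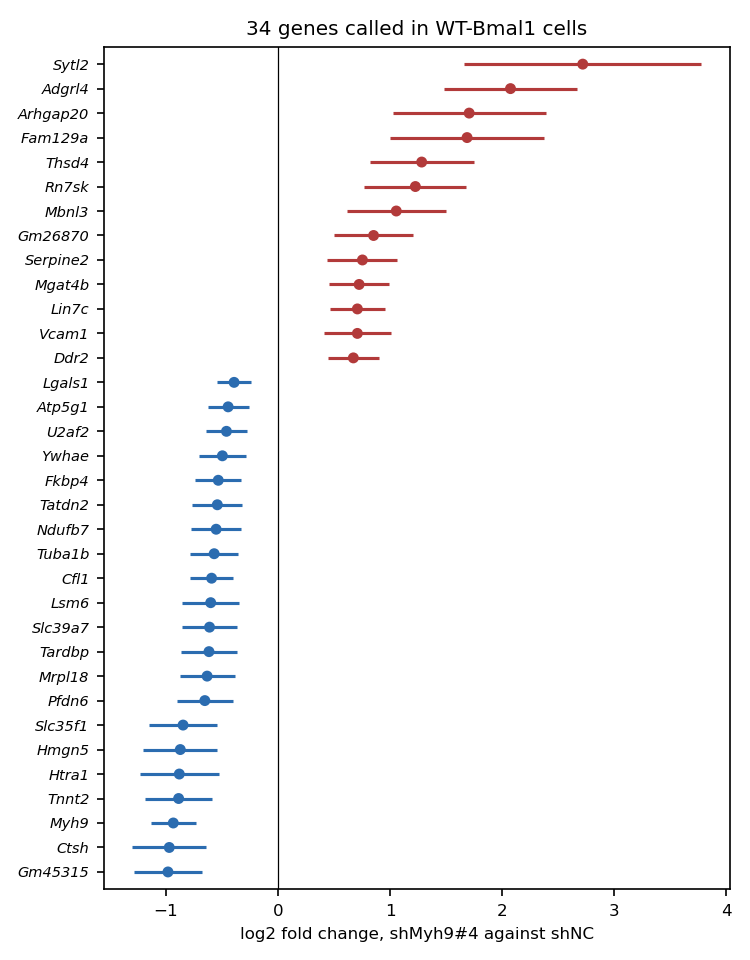
The log2 fold change with its 95% interval of 34 of the 35 genes called with shMyh9#4 against shNC in WT-Bmal1 cells, ordered by size, with higher genes in red and lower genes in blue. Sytl2 at 2.72 and Gm45315 at -0.98 mark the ends, and the intervals of the weakly expressed higher genes are the widest.

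The largest fall was in the processed pseudogene Gm45315, followed by Ctsh, Myh9, Tnnt2 and Htra1. Ctsh, the lysosomal protease cathepsin H, fell from 29.96 and 27.9 to 13.8 and 15.5 CPM, a log2 fold change of -0.97 (SE 0.16, edgeR adjusted p = 0.019). Tnnt2, the cardiac form of troponin T, fell from 63.9 and 56.6 to 30.2 and 34.6 CPM, a log2 fold change of -0.89 (SE 0.14, edgeR adjusted p = 0.019). Htra1, a secreted serine protease that overlaps Fgfr2, fell from 59.5 and 64.04 to 31.4 and 35.5 CPM, a log2 fold change of -0.88 (SE 0.17, edgeR adjusted p = 0.039). For each of these genes both shMyh9#4 libraries lay below both shNC libraries, as the naming rule required, and the replicates lay close together. Hmgn5, a nucleosome-binding protein, went from 44.8 and 41.2 to 21.2 and 25.4 CPM (log2 fold change -0.87, SE 0.16, edgeR adjusted p = 0.032). Slc35f1, a solute carrier, went from 57.3 and 62.9 to 33.7 and 33.2 CPM (log2 fold change -0.85, SE 0.14, edgeR adjusted p = 0.024). Gm45315, whose reads may belong to a near-identical copy, went from 241 and 191 to 115 and 104 CPM (log2 fold change -0.98, edgeR adjusted p = 0.012).

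Cytoskeletal proteins and the factors that fold them were among the lower genes. Cfl1, the cofilin that severs actin filaments, fell from 1083 and 1000.2 to 668 and 714 CPM, a log2 fold change of -0.59 (SE 0.09, edgeR adjusted p = 0.016). Pfdn6, a subunit of prefoldin, which hands new actin and tubulin to the chaperonin, fell from 79.7 and 82.8 to 47.8 and 55.1 CPM, a log2 fold change of -0.65 (SE 0.12, edgeR adjusted p = 0.032). Tuba1b, an α-tubulin, fell from 3762 and 3945 to 2394 and 2802 CPM, a log2 fold change of -0.57 (SE 0.10, edgeR adjusted p = 0.032). The libraries of the groups did not overlap for any of them, and each of the 3 overlaps at least 1 other annotated gene. Fkbp4, a co-chaperone with peptidyl-prolyl isomerase activity, went from 336 and 353 to 255 and 223 CPM (log2 fold change -0.53, edgeR adjusted p = 0.032). Lgals1, the lectin galectin-1, went from 5096 and 5016 to 3871 and 3840.2 CPM and had the smallest of the 35 differences, -0.39 (SE 0.07, edgeR adjusted p = 0.032). Tuba1b, Fkbp4 and Lgals1 lie outside the naming rule and are given with their values known, and Tuba1b shares sequence with other α-tubulin genes.

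Other lower genes belong to RNA processing, mitochondria and transport. Tardbp, an RNA-binding protein that represses cryptic exons, fell from 308 and 307 to 179.9 and 221 CPM, a log2 fold change of -0.61 (SE 0.12, edgeR adjusted p = 0.042). Mrpl18, a protein of the mitochondrial ribosome, fell from 139 and 139 to 101 and 79.8 CPM, a log2 fold change of -0.63 (SE 0.12, edgeR adjusted p = 0.032). Tardbp overlaps the gene Masp2, and Mrpl18 overlaps Tcp1. A further 7, also outside that rule, differed by -0.44 to -0.61 on the log2 scale with edgeR adjusted p from 0.040 to 0.043. They were U2af2 (a splicing factor), Lsm6 (a subunit of an RNA-binding ring in splicing and decay), Ndufb7 (a subunit of respiratory complex I), Atp5g1 (a subunit of ATP synthase), Slc39a7 (a zinc transporter), Ywhae (a phosphoserine-binding adaptor) and Tatdn2 (a nuclease-like protein).

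Gene lists of pathways showed at most 1 called member each in this comparison. Of 20 genes of myosin II and its regulators, Myh9 was called and the median log2 fold change was 0.01, and of 37 genes of actin filaments and focal adhesion, Cfl1 was called and the median was -0.08. Of 36 MRTF-SRF targets tested, none was called by edgeR and 1 was by DESeq2, 3 were higher and 3 lower at an unadjusted p under 0.05, and the median was 0.01. Actb, the cytoplasmic β-actin and an MRTF-SRF target, had 13937 and 13587 CPM with shNC and 11693 and 10549 with shMyh9#4 (log2 fold change -0.31, edgeR adjusted p = 0.089). Rhoa, the small GTPase upstream of myosin, had 301 and 282 CPM with shNC and 209 and 229 with shMyh9#4 (log2 fold change -0.41, edgeR adjusted p = 0.077). Of 43 tested genes of the mesenchymal state and matrix, Serpine2 was called. At an unadjusted p under 0.05, 10 of them were higher and 8 lower. Their median was 0.06, and this median was below 0 without shNC replicate 2 or without shMyh9#4 replicate 2. Col4a2, a collagen chain, was lower with shMyh9#4 (log2 fold change -0.48, edgeR adjusted p = 0.094). Bgn, the proteoglycan biglycan, had 116 and 139 CPM with shNC and 224 and 184 with shMyh9#4 (log2 fold change 0.68, edgeR adjusted p = 0.058), and Snai2, a transcription factor of the neural crest and of mesenchymal change, 67.6 and 52.6 CPM with shNC and 88.5 and 86.4 with shMyh9#4 (log2 fold change 0.54, edgeR adjusted p = 0.078).

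None of 35 hypoxia response genes was called by edgeR and 3 were by DESeq2, with 12 lower and 1 higher at an unadjusted p under 0.05. Of these genes 28 lay below 0 and 7 above, and the median was -0.20. Ldha, lactate dehydrogenase A, had 1132 and 1098 CPM with shNC and 774 and 876 with shMyh9#4 (log2 fold change -0.43, edgeR adjusted p = 0.052). Among 40 cell cycle genes, none was called by edgeR and 2 were by DESeq2, 7 were lower and 1 higher at an unadjusted p under 0.05, and the median was -0.07. E2f1, a transcription factor of S-phase entry, had 134 and 123 CPM with shNC and 84.9 and 91.9 with shMyh9#4 (log2 fold change -0.54, edgeR adjusted p = 0.052). Among 27 interferon-stimulated genes, none was called by edgeR or DESeq2, 6 were higher and 1 lower at an unadjusted p under 0.05, and the median was 0.34. Among 15 cytokines and chemokines, none was called by edgeR and 3 were by DESeq2, 5 were higher and 1 lower at an unadjusted p under 0.05, and the median was 0.30. Ccl5, a chemokine for T cells, had 2.25 and 3.34 CPM with shNC and 7.46 and 11.4 with shMyh9#4 (log2 fold change 1.77, edgeR adjusted p = 0.052), and Csf1, a growth factor of macrophages, 47.99 and 40.5 CPM with shNC and 62.3 and 74.9 with shMyh9#4 (log2 fold change 0.64, edgeR adjusted p = 0.06). The shNC and shMyh9#4 libraries did not overlap for Ldha, E2f1, Ccl5 or Csf1, although none passed the threshold.

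The remaining lists had no call by edgeR in this comparison. Over all genes tested, 12.1% had an unadjusted p under 0.05, with 5.99% higher and 6.1% lower. Lists such as the integrated stress response and NRF2 targets lay above this share. Clock genes, melanocytic genes and β-catenin targets lay below it. Whether any list departs from that share was not tested. At an unadjusted p under 0.05, there were 5 higher and 2 lower of 21 targets of the integrated stress response, 3 and 0 of 19 p53 targets, 4 and 0 of 15 genes of MAPK feedback, 3 and 2 of 21 YAP and TEAD targets, 2 and 2 of 15 AP-1 and ATF factors, and 3 and 1 of 15 immediate early genes. The numbers were 1 and 3 of 27 genes of sterol synthesis, 1 and 2 of 16 genes of the unfolded protein response, 3 and 2 of 16 NRF2 targets and metallothioneins, 1 and 1 of 15 genes of antigen presentation, 0 and 1 of 17 clock genes, 0 and 1 of 13 melanocytic genes, 0 and 2 of 7 Sox factors, 0 and 0 of 9 β-catenin targets and 0 and 1 of 6 tested markers of other cell types. DESeq2 called 0 to 4 genes in each of these lists. The transcript of Bmal1, listed as Arntl (chromosome 7, 113207465 to 113314126), had 34.6 and 33.2 CPM with shNC and 27.3 and 22.2 with shMyh9#4 (log2 fold change -0.47, SE 0.18, edgeR adjusted p = 0.29). The Arntl levels were lower in both shMyh9#4 libraries and missed the threshold. With shNC, Arntl had 30.4 and 25.99 CPM in EV cells and 48.04 and 36.7 CPM in dHLH-Bmal1 cells, so the counts of Arntl show little of the added WT-Bmal1.

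Gene classes defined by name, and added after the values were seen, lay below 0 in most members. Their called members were known when the classes were written, so these calls are no separate result. Over all genes tested, 50.6% lay above 0 and 0.148% were called lower. Of 81 cytosolic ribosomal protein genes, 73 were below 0 with a median of -0.22. With shMyh9#2 against the same shNC libraries 72 were below 0 with a median of -0.21, and between the hairpins the median was -0.01. With shMyh9#4 in dHLH-Bmal1 cells 60 were below 0 with a median of -0.25, and in EV cells 25 with a median of 0.06. Of 78 subunits of oxidative phosphorylation, 64 were below 0 with a median of -0.13, and 2 (Ndufb7 and Atp5g1) were called. Of 13 tubulins, 11 were below 0 with a median of -0.45, and 1 (Tuba1b) was called, while 11 of 12 chaperonin and prefoldin genes were below 0 with a median of -0.21, and 1 (Pfdn6) was called. All 5 medians are beside 0.00498 over all genes tested, and that of 78 mitochondrial ribosomal proteins was -0.10 with 57 below 0 and 1 (Mrpl18) called. Ribosomal protein transcripts took 11.95% and 12.69% of counts in the shNC libraries and 11.01% and 11.2% in the shMyh9#4 libraries.

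**Figure D3:**
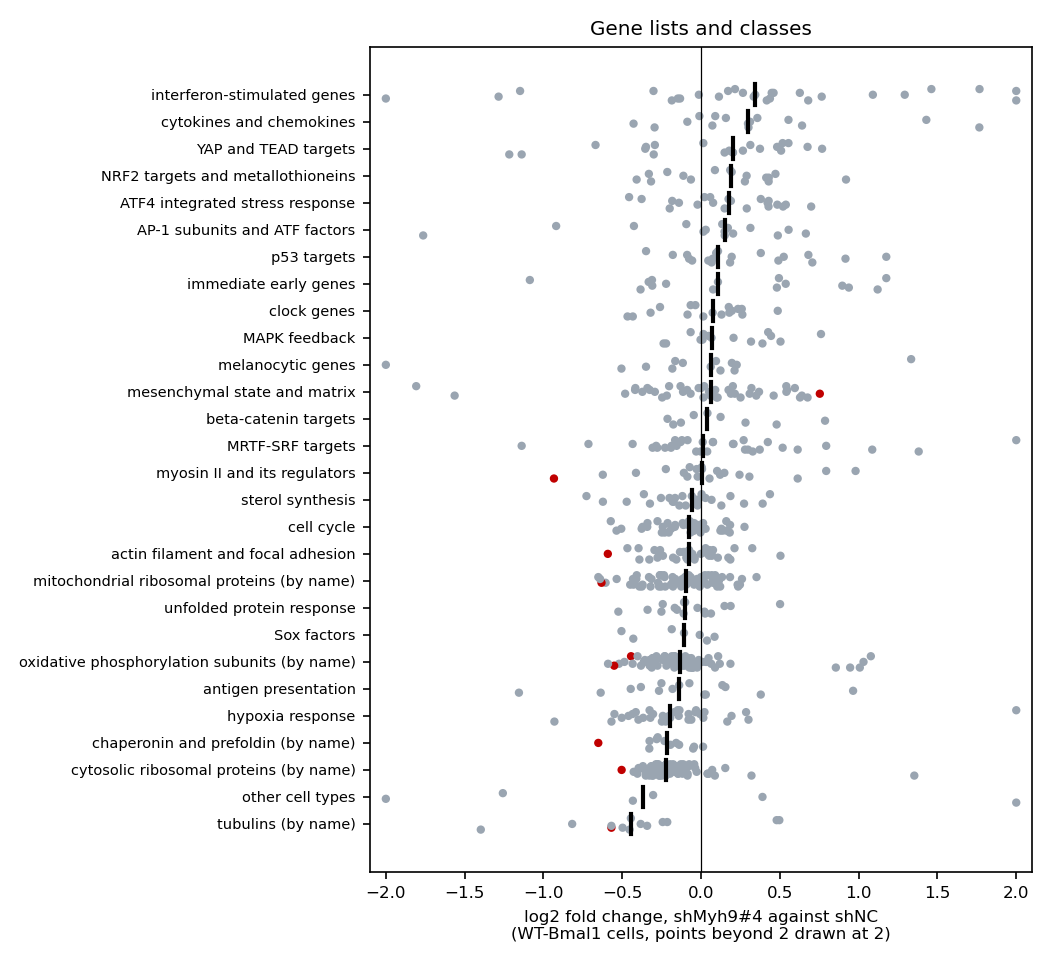
The log2 fold change of the tested members of 23 gene lists and 5 gene classes with shMyh9#4 against shNC in WT-Bmal1 cells, with 1 point per gene, called genes in red and the median as a black bar. Points beyond 2 are drawn at 2, medians run from -0.45 for tubulins to 0.34 for interferon-stimulated genes, and no list or class has more than 2 red points.

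The 2 hairpins against Myh9 were then set against each other. Between the shMyh9#4 and shMyh9#2 libraries of WT-Bmal1 cells, 894 genes were called (6.02% of those tested), 417 higher with shMyh9#4 (2.81%) and 477 lower (3.21%). The comparisons of the hairpins with each other and with shNC share libraries, so their values are given side by side only. Sox10 (chromosome 15, 79154908 to 79165240) had 96.2 and 96.8 CPM with shNC, 33.7 and 35.7 with shMyh9#2 and 68.8 and 67.2 with shMyh9#4. The 3 groups did not overlap, and the level with shMyh9#4 exceeded that with shMyh9#2 by 0.97 on the log2 scale (SE 0.11, edgeR adjusted p = 6.7e-05). Against shNC, Sox10 differed by -0.51 with shMyh9#4 (SE 0.11, edgeR adjusted p = 0.058, just outside the threshold) and by -1.48 with shMyh9#2 (SE 0.11, edgeR adjusted p = 2.4e-07). In shMyh9#2 against shNC, 707 genes were called (4.76%), 349 higher (2.35%) and 358 lower (2.41%). DESeq2, and edgeR with no filter on low counts, called Sox10 in shMyh9#4 against shNC.

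Some genes called with shMyh9#4 against shNC took different levels with shMyh9#2, and others did not. Sytl2 had 4.25 and 3.23 CPM with shMyh9#2 and 4.78 and 4.45 with shMyh9#4 (log2 fold change 0.29, edgeR adjusted p = 0.74). Mgat4b had 182 and 215 CPM with shMyh9#2 and 229 and 215 with shMyh9#4 (log2 fold change 0.16, edgeR adjusted p = 0.53). Gm26870 was not called between the hairpins either (log2 fold change 0.21, edgeR adjusted p = 0.53). Adgrl4 had 23.8 and 28.1 CPM with shMyh9#2, above both other groups, and was -1.51 in shMyh9#4 against shMyh9#2 (SE 0.21, edgeR adjusted p = 3.3e-04). Arhgap20 had 5.45 and 2.99 CPM with shMyh9#2 and was 1.59 in shMyh9#4 against shMyh9#2 (SE 0.30, edgeR adjusted p = 0.0046). Rn7sk had 7.87 and 8.97 CPM with shMyh9#2 and differed by 1.35 (SE 0.21, edgeR adjusted p = 8.8e-04). The levels with shMyh9#2 were thus near those with shNC for Arhgap20 and Rn7sk and above those with shMyh9#4 for Adgrl4. Ifitm3, an interferon-stimulated membrane protein, had 249.9 and 253 CPM with shNC, 731 and 746 with shMyh9#2 and 336 and 302 with shMyh9#4, and was lower with shMyh9#4 than with shMyh9#2 (log2 fold change -1.21, SE 0.11, edgeR adjusted p = 4.0e-06). Tnc, the matrix protein tenascin C, had 64.3 and 77.1 CPM with shMyh9#2 and 20.1 and 16.95 with shMyh9#4 (log2 fold change -1.95, SE 0.15, edgeR adjusted p = 1.0e-06).

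Between the hairpins, 7 of 40 cell cycle genes and 7 of 35 hypoxia response genes were called lower with shMyh9#4. So were 12 of 78 subunits of oxidative phosphorylation and 6 of 13 tubulins. None of these genes was called higher, and 3.21% of all genes tested were called lower. The oxidative phosphorylation and tubulin classes were added after the values were seen, so their counts are no separate result. Of 43 genes of the mesenchymal state and matrix, 11 were called higher and 10 lower, where 2.81% of all genes tested were called higher and 3.21% lower. Of 7 Sox factors tested, 3 were called higher with shMyh9#4, among them Sox10 and Sox4 (172 and 151 CPM with shMyh9#2 and 224 and 227 with shMyh9#4, log2 fold change 0.48, edgeR adjusted p = 0.0047). The rule for the largest differences gave mainly transcripts near 0 in 1 group, for which counts are given and no fold change. The pseudogene Gm48270 had 0 and 0 counts with shMyh9#2 and 15 and 49 with shMyh9#4, and Man1a, a mannosidase of the Golgi, had 33 and 21 counts with shMyh9#2 and 0 and 0 with shMyh9#4. Ltbp2, a matrix protein that binds fibrillin, had 0 and 1 counts with shMyh9#2 and 17 and 25 with shMyh9#4, and the replication histone Hist1h4c 19 and 21 counts with shMyh9#2 and 0 and 0 with shMyh9#4. Zfp97, Rps12-ps20, Rps12-ps21, Snora47, Hist1h2bj and Gm26448 completed the list. Without 1 library the number of calls between the hairpins was 265 to 636, with 265 without shMyh9#2 replicate 2, 311 without shMyh9#2 replicate 1 and 404 without shMyh9#4 replicate 1.

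The same hairpin called more genes by edgeR in the other cells, with 254 in EV cells (1.71%) and 2248 in dHLH-Bmal1 cells (15.1%). Those libraries share none with the WT-Bmal1 comparison. DESeq2 called 246 genes in WT-Bmal1, 304 in EV and 2327 in dHLH-Bmal1 cells. At an unadjusted p under 0.05 in edgeR there were 1794 genes in WT-Bmal1, 1539 in EV and 4480 in dHLH-Bmal1 cells. The gap between WT-Bmal1 and EV cells thus depended on the test and the threshold. Of 216 genes higher with shMyh9#4 in EV cells (1.45% of those tested), 3 (1.39%) were also called higher in WT-Bmal1 cells, which is 23.1% of the 13. They were Thsd4, Vcam1 and Ddr2. Of 38 genes lower in EV cells (0.256%), 3 (7.89%) were called lower in WT-Bmal1 cells, which is 13.6% of the 22, namely Myh9, Ctsh and Slc35f1. In dHLH-Bmal1 cells, 932 genes were higher (6.28%), and 5 of them (0.536%) were among the 13 (38.5%), namely Adgrl4, Mbnl3, Serpine2, Mgat4b and Ddr2. Of 1316 lower genes there (8.86%), 8 (0.608%) were among the 22 (36.4%), and these included Myh9, Tnnt2, Htra1, Cfl1, Tuba1b and Tardbp. Ddr2 was thus called higher, and Myh9 lower, in all 3 kinds of cells. Calls in opposite directions were 2 between WT-Bmal1 and EV cells (Tnnt2 and Htra1) and 3 between WT-Bmal1 and dHLH-Bmal1 cells (Hmgn5, Slc35f1 and Fkbp4). The number of calls in EV cells was 114 and 110 without shNC replicate 1 and 2 and 142 without shMyh9#4 replicate 2. The number in dHLH-Bmal1 cells was 194 without shMyh9#4 replicate 2, 541 without shNC replicate 1 and 1079 without shNC replicate 2 of those cells.

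**Figure D4:**
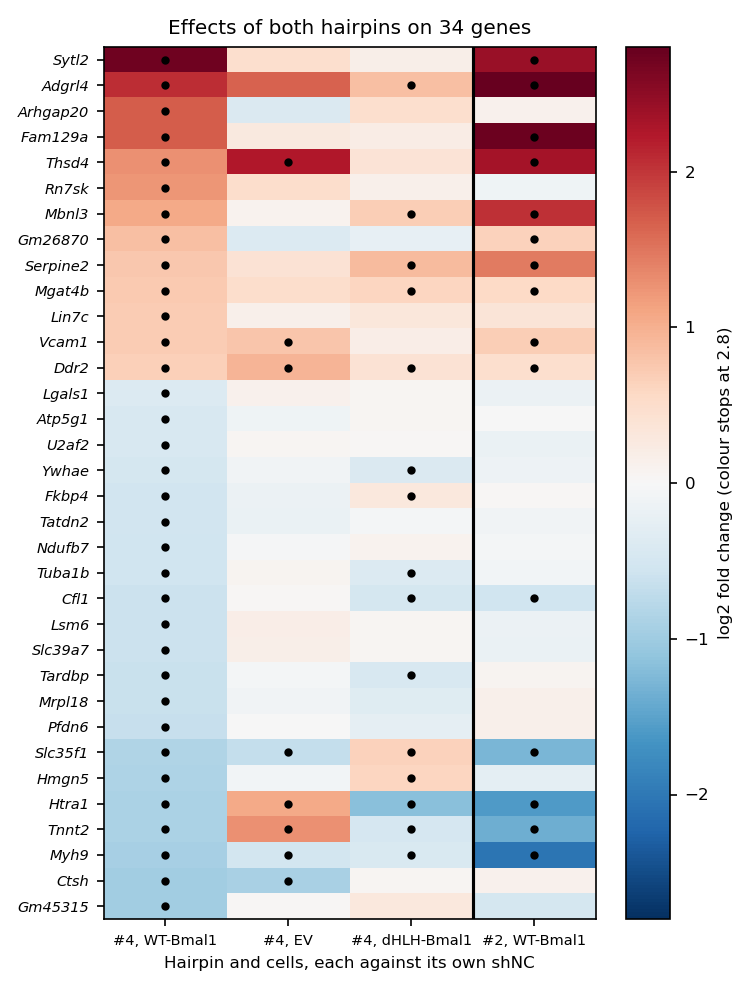
The log2 fold change of 34 of the 35 genes called in WT-Bmal1 cells (first column) for shMyh9#4 in EV and dHLH-Bmal1 cells and, right of the line, for shMyh9#2 in WT-Bmal1 cells, each against shNC of the same cells. Dots mark an edgeR adjusted p under 0.05, and the first and last columns share their shNC libraries. Tnnt2 and Htra1 are blue in the first column and red in EV cells.

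The effect of shMyh9#4 differed between WT-Bmal1 and EV cells for 110 genes (0.741% of 14848), 93 of them lower (0.626%) and 17 higher (0.114%) in WT-Bmal1 relative to EV cells. The median level of the 93 genes went from 20.7 CPM with shNC to 43.9 with shMyh9#4 in EV cells and from 70.0 to 64.9 CPM in WT-Bmal1 cells. Their median with shNC was thus higher in WT-Bmal1 than in EV cells. Both shNC levels enter the difference by which the 93 genes were picked, so this gap is no separate result. Sox9 (ENSMUSG00000000567, chromosome 11, 112782224 to 112787760) had 115 and 111 CPM with shNC and 260.3 and 281 with shMyh9#4 in EV cells (log2 fold change 1.26, SE 0.11, edgeR adjusted p = 6.7e-06). In WT-Bmal1 cells it had 309 and 356 CPM with shNC and 324 and 294 with shMyh9#4, with overlapping groups (log2 fold change -0.11, SE 0.10, edgeR adjusted p = 0.75). The difference of the effects was -1.37 (SE 0.15, edgeR adjusted p = 1.9e-04), and in dHLH-Bmal1 cells Sox9 had 323 and 326 CPM with shNC and 367 and 423 with shMyh9#4. The Sox9 difference kept its call in 14 of 15 other settings and lost it in a fit of all 40 libraries (edgeR adjusted p = 0.40).

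Tnnt2 and Htra1 fell in WT-Bmal1 cells and rose in EV cells. In EV cells Tnnt2 went from 8.97 and 12.3 to 25.2 and 26.8 CPM (log2 fold change 1.28, SE 0.16, edgeR adjusted p = 1.6e-04), and the difference of the effects was -2.17 (SE 0.21, edgeR adjusted p = 1.5e-04). Htra1 went from 6.46 and 6.63 to 12.9 and 14.5 CPM in EV cells (log2 fold change 1.07, SE 0.20, edgeR adjusted p = 0.0066), and the difference of the effects was -1.94 (SE 0.26, edgeR adjusted p = 9.5e-04). With shMyh9#4, the levels of both were nearer to each other in the EV and WT-Bmal1 cells than with shNC. That nearness follows from their opposite changes and their shNC levels, and is no separate result. Both differences kept their call in 14 of 15 other settings and lost it in a fit of all 40 libraries (edgeR adjusted p = 0.080 and 0.18). Mgll, which breaks down monoacylglycerols, had 1.44 and 2.39 CPM with shNC and 7.81 and 7.94 with shMyh9#4 in EV cells and 27.97 and 30.6 CPM with shNC and 26.6 and 30.4 with shMyh9#4 in WT-Bmal1 cells, a difference of -2.06 (SE 0.30, edgeR adjusted p = 0.0018). Cdh5, the cadherin of endothelium, had 3.47 and 2.07 CPM with shNC and 11.8 and 9.16 with shMyh9#4 in EV cells and 12.6 and 11.4 CPM with shNC and 8.60 and 10.6 with shMyh9#4 in WT-Bmal1 cells, a difference of -2.23 (SE 0.37, edgeR adjusted p = 0.0056). Acsbg1, an acyl-CoA synthetase, and Gm43792, an unnamed transcript, completed the 5 largest lower differences. Of 15 other settings, Mgll kept its call in 14, Cdh5 in 13, Gm43792 in 8 and Acsbg1 in 7.

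The largest higher differences against EV cells were in Arhgap20, Cndp1, Cers6, Gm26870 and Tnc. Of 15 other settings, Arhgap20 and Tnc kept their call in 7, Cndp1 in 8, Cers6 in 5 and Gm26870 in 10. Arhgap20 had 8.73 and 8.37 CPM with shNC and 6.53 and 6.31 with shMyh9#4 in EV cells, and the difference of the effects was 2.12 (SE 0.45, edgeR adjusted p = 0.034). Tnc had 30.4 and 30.8 CPM with shNC and 17.3 and 16.8 with shMyh9#4 in EV cells and 14.98 and 14.4 CPM with shNC and 20.1 and 16.95 with shMyh9#4 in WT-Bmal1 cells, a difference of 1.16 (SE 0.23, edgeR adjusted p = 0.022). Tnc was called lower with shMyh9#4 in EV cells and not called in WT-Bmal1 cells. Of the 43 genes of the mesenchymal state and matrix, 6 had a called lower difference and 1 a higher one, and of 13 tubulins 4 had a lower one. Of all genes tested, 0.626% had a lower difference and 0.114% a higher one. The tubulin class was added after the values were seen, so its count is no separate result. The number of genes that differed was 38 without EV shNC replicate 1, 38 without EV shMyh9#4 replicate 2, 42 without EV shNC replicate 2, 46 and 51 without WT-Bmal1 shNC replicate 1 and 2, and 64 and 69 without WT-Bmal1 shMyh9#4 replicate 1 and 2.

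**Figure D5:**
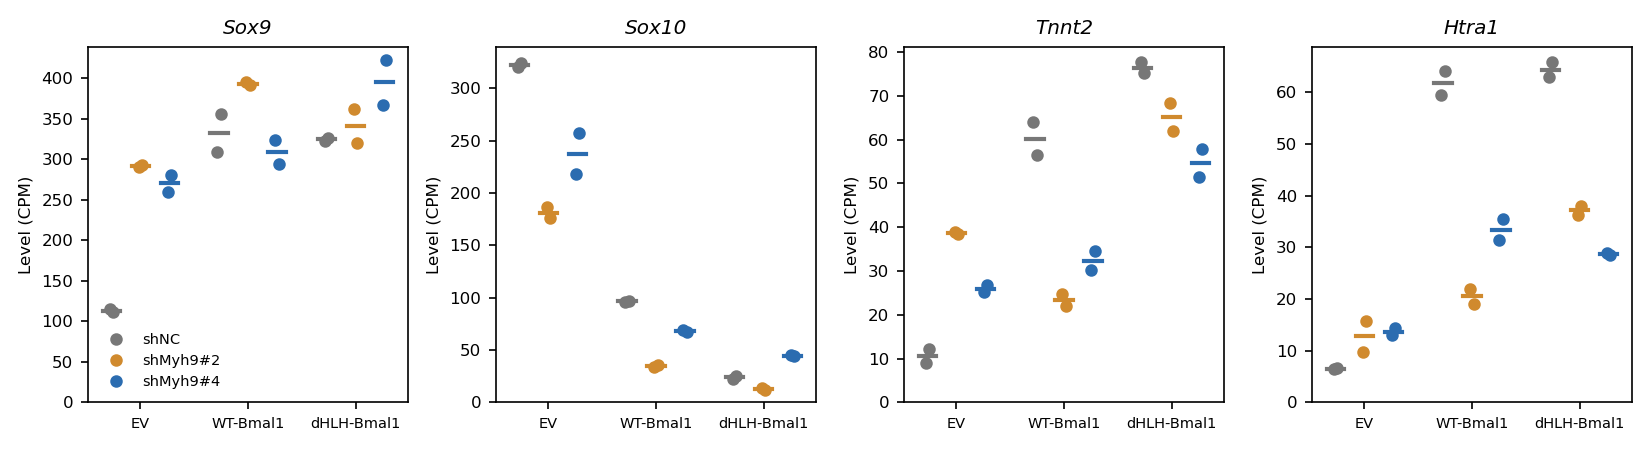
Level in CPM of Sox9, Sox10, Tnnt2 and Htra1 in the 3 kinds of cells with shNC, shMyh9#2 or shMyh9#4. Each point is 1 library and each bar a group mean. With shMyh9#4, Sox9, Tnnt2 and Htra1 are above shNC in EV cells, while Tnnt2 and Htra1 are below shNC in WT-Bmal1 cells.

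Against dHLH-Bmal1 cells, the effect of shMyh9#4 differed for 461 genes (3.1% of 14848), 222 higher (1.5%) and 239 lower (1.61%) in WT-Bmal1 cells. The median level of the 222 genes went from 44.3 CPM with shNC to 18.8 with shMyh9#4 in dHLH-Bmal1 cells and from 33.4 to 34.5 CPM in WT-Bmal1 cells. That of the 239 genes went from 73.9 to 102 CPM in dHLH-Bmal1 cells and from 93.4 to 81.6 CPM in WT-Bmal1 cells. Sox10 had 22.03 and 25.6 CPM with shNC and 45.3 and 44.1 with shMyh9#4 in dHLH-Bmal1 cells (log2 fold change 0.92, SE 0.12, edgeR adjusted p = 4.7e-04). The difference of the effects in WT-Bmal1 and dHLH-Bmal1 cells was -1.43 (SE 0.17, edgeR adjusted p = 3.3e-04) and kept its call in 15 of 15 other settings. In EV cells Sox10 had 320.0 and 324 CPM with shNC and 218 and 257 with shMyh9#4, a log2 fold change of -0.44 (SE 0.10, edgeR adjusted p = 0.037). Sox10 was therefore below shNC in the shMyh9#4 libraries of EV and WT-Bmal1 cells and above it in those of dHLH-Bmal1 cells.

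Slc35f1 and Hmgn5 were called in opposite directions in the WT-Bmal1 and dHLH-Bmal1 cells. Slc35f1 had 15.1 and 14.5 CPM with shNC and 24.8 and 22.05 with shMyh9#4 in dHLH-Bmal1 cells, and the difference of the effects was -1.50 (SE 0.22, edgeR adjusted p = 0.0025). Hmgn5 had 29.9 and 29.7 CPM with shNC and 44.2 and 45.99 with shMyh9#4 there, and its difference was -1.47 (SE 0.22, edgeR adjusted p = 0.0037). By the rule, the largest lower differences were in Gm15626, Gm26521, Rnf144a (a ubiquitin ligase), Plpp2 (a lipid phosphatase) and Fxyd3 (a regulator of the sodium pump). Plpp2 had 1.75 and 1.75 CPM with shNC and 11.1 and 6.72 with shMyh9#4 in dHLH-Bmal1 cells and 11.9 and 9.56 CPM with shNC and 6.50 and 5.49 with shMyh9#4 in WT-Bmal1 cells, a difference of -3.15 (SE 0.43, edgeR adjusted p = 0.0016). Rnf144a had 1.55 and 2.22 CPM with shNC and 11.7 and 5.51 with shMyh9#4 in dHLH-Bmal1 cells and 12.5 and 16.7 CPM with shNC and 7.46 and 7.39 with shMyh9#4 in WT-Bmal1 cells, a difference of -3.17 (SE 0.53, edgeR adjusted p = 0.0071).

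The 5 largest higher differences against dHLH-Bmal1 cells were in transcripts at or near 0 counts in both shMyh9#4 libraries of those cells. Gm26377 had 7417 and 2399 counts with shNC and 0 and 0 with shMyh9#4 there, and 2007 and 954 counts with shNC and 135 and 4182 with shMyh9#4 in WT-Bmal1 cells. Gm4737 had 629 and 256 counts with shNC and 0 and 0 with shMyh9#4 there, and 325 and 195 counts with shNC and 64 and 351 with shMyh9#4 in WT-Bmal1 cells. Mir703 had 302 and 88 counts with shNC and 2 and 0 with shMyh9#4 there, and 89 and 51 counts with shNC and 14 and 184 with shMyh9#4 in WT-Bmal1 cells. In each of the 3, shMyh9#4 replicate 1, the shallowest of the 4 WT-Bmal1 libraries, had the lowest level of them also in CPM. The totals of the shMyh9#4 libraries of dHLH-Bmal1 cells were 3643332 and 6001340 counts, and the part of depth in these values was not tested. The edgeR adjusted p of the differences were 0.013, 0.0075 and 0.048. Mir703 kept its call in 6 of 15 other settings, Gm26377 in 11 and Gm4737 in 13. The others were Cgn, cingulin of tight junctions, and Fbxl14, a subunit of a ubiquitin ligase. The number of genes that differed from dHLH-Bmal1 cells was 1194 without WT-Bmal1 shMyh9#4 replicate 1, 37 without WT-Bmal1 shMyh9#4 replicate 2, 273 and 77 without WT-Bmal1 shNC replicate 1 and 2, 772 and 42 without dHLH-Bmal1 shMyh9#4 replicate 1 and 2, and 46 and 94 without dHLH-Bmal1 shNC replicate 1 and 2.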

How the data were processed

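RNA of cultured YUMM2.1 cells was sequenced as single reads with QuantSeq 3′ libraries. The authors aligned reads to mm10 with bowtie2 and estimated counts per Ensembl gene with RSEM. Its version is 1.2.3 in the submitters' processing notes, and the study's methods give a different version. The deposited values are these expected counts, rounded to whole numbers and not normalized, for 51789 genes. Which Ensembl release was used, and with which strand setting, is not given in the sources used here. Symbols and positions are from GENCODE M21 on GRCm38 and cover 99.63% of the identifiers.

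The 18 hairpin libraries in 9 groups entered one fit with edgeR 4.0.16 in R 4.3.3 (TMM, filterByExpr, quasi-likelihood F test), so groups share one estimate of the spread. Genes with a Benjamini-Hochberg adjusted p under 0.05, over the 14848 tested, are called. SE belongs to a log2 fold change and SD to the 2 libraries of a group. The study counts the 2 libraries of a group as biological replicates, but nothing used here says that they came from separate cultures, so the p-values measure only the spread between them, which may be technical. Replicate libraries differed by more than sampling noise, so none was counted as a repeat.

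Named genes are Myh9, Arntl, Sox9 and Sox10, the 10 largest called changes in each direction (a mean of at least 10 counts, groups apart), the 5 largest for the comparison of hairpins and each difference between cells, and up to 4 members of each list with the smallest p. The members and lists were chosen with earlier results of these data known. The alternatives were the Wald test of DESeq2 1.42.0, its size factors in edgeR, all genes without a filter, a minimum mean of 10 counts, only the groups of a contrast, all 40 libraries, a replicate block, a log2 fold change of at least 1 and each library left out. The edgeR script was tested on simulated data, with changes put into shMyh9#4 against shNC in WT-Bmal1 cells. It recovered 6.1% of changes of 0.5 on the log2 scale, 34.3% of changes of 1 and 74.6% of changes of 2. Of 79 calls, 2 were false. The simulated libraries shared the same estimate of the spread for a gene and had no other group effect. Such rates may be too favorable for the real libraries. A gene that was not called may therefore still have changed. One called gene is not reported here by name. The hairpin sequences were not used here.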

Additional observations from a re-analysis of the deposited data

Results flagged for a closer look

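The effect of shMyh9#4 differed between cell populations, by edgeR's test of the difference, for 43 of the named results, 18 against EV cells and 25 against dHLH-Bmal1 cells. Each value is the log2 effect in WT-Bmal1 cells minus that in the other cells.

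Against EV cells, the difference was below 0 for Cdh5 (-2.23), Acsbg1 (-2.22), Tnnt2 (-2.17), Gm43792 (-2.13), Mgll (-2.06), Htra1 (-1.94), Sox9 (-1.37) and Gm45315 (-1.02). It was below 0 and smaller in size for Slc39a7 (-0.78), Lsm6 (-0.78), Tuba1b (-0.65), Cfl1 (-0.63) and Lgals1 (-0.52). It was above 0 for Tnc (1.16), Gm26870 (1.24), Cers6 (1.48), Cndp1 (1.68) and Arhgap20 (2.12).

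Against dHLH-Bmal1 cells, the difference was below 0 for Gm15626 (-4.38), Gm26521 (-3.20), Rnf144a (-3.17), Plpp2 (-3.15), Fxyd3 (-3.06), Slc35f1 (-1.50), Hmgn5 (-1.47), Sox10 (-1.43), Gm45315 (-1.28) and Ctsh (-1.03). It was below 0 and smaller in size for Fkbp4 (-0.83), Slc39a7 (-0.67), Lsm6 (-0.65), Ndufb7 (-0.64), Myh9 (-0.51), Atp5g1 (-0.50), U2af2 (-0.50) and Lgals1 (-0.45). It was above 0 for Gm26870 (1.08) and Sytl2 (2.54). For transcripts at or near 0 counts in both dHLH-Bmal1 shMyh9#4 libraries no fold is given, and the edgeR adjusted p was 0.0478 for Mir703, 0.0235 for Fbxl14, 0.0139 for Cgn, 0.00754 for Gm4737 and 0.0129 for Gm26377.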

How the results depend on the processing

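The 35 calls of shMyh9#4 against shNC in WT-Bmal1 cells became 305 with no filter on low counts, 246 with DESeq2, 20 with all 40 libraries, 5 with only the groups of the contrast, 7 at a log2 fold change of at least 1 and 1 to 12 without 1 library. With the replicate block there were 23. Replicate numbers did not pair the libraries, since the correlation of deviations was over 0.1 for 2 of 36 pairs of groups and was -0.09 between shMyh9#4 and shNC of WT-Bmal1 cells. For the other comparisons the replicate block gave 833 (between hairpins), 634 (shMyh9#2 against shNC), 241 (EV), 2182 (dHLH-Bmal1), 98 (WT-Bmal1 against EV) and 351 (WT-Bmal1 against dHLH-Bmal1). The 894 calls between the hairpins became 478 with only the groups of the contrast, 270 at a log2 fold change of at least 1 and 265 to 636 without 1 library. The 707 calls of shMyh9#2 against shNC became 284 at that fold change and 222 to 303 without 1 library. The 254 calls in EV cells became 430 with no filter, 118 with all 40 libraries, 120 at that fold change and 110 to 253 without 1 library, and the 2248 in dHLH-Bmal1 cells became 780 at that fold change and 194 to 2074 without 1 library. The 110 differences against EV cells became 317 with no filter, 31 with all 40 libraries, 43 with only those groups, 190 with DESeq2, 70 at that fold change and 38 to 144 without 1 library. The 461 against dHLH-Bmal1 cells became 1339 with no filter, 247 with only those groups, 815 with DESeq2, 246 at that fold change and 37 to 1194 without 1 library. Of the values of named genes in the first comparison, 3 changed sign, none of them called. Sox13 was 0.15 without shNC replicate 2 and 0.06 without shMyh9#4 replicate 1, and ranged from -0.56 to 0.15 without 1 library. Canx ranged from -0.023 without shMyh9#4 replicate 1 to 0.26 without shMyh9#4 replicate 2. Medians of 7 lists changed sign in at least 1 setting, namely myosin II, MRTF-SRF targets, mesenchymal state, melanocytic genes, the integrated stress response, β-catenin targets and markers of other cell types. The cause was not tested. The 2 libraries of each group, and low counts for weakly expressed genes, limit the precision of all these values.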
